A study of Mus musculus with 12 samples.

Results

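The genes described here encode the proteins of the cytosolic ribosome. The members were chosen by gene symbol: every gene ID whose mouse symbol is Rpl or Rps followed by a number, or is Rplp0, Rplp1, Rplp2 or Rpsa, with the Rps6k kinases and the symbols ending in -ps left out. This gave 93 of the 55964 gene IDs in the deposited tables. No measured value picked a single member. The group itself was selected on measured values, because an earlier and shorter list of these genes had already been seen at higher levels in LPS liver in the same libraries. Counts of members called in that comparison are therefore given as a description, and nothing is read from them against the other genes. Of the 93, 77 are the canonical ribosomal proteins and 7 are paralogs (Rpl3l, Rpl10l, Rpl22l1, Rpl36al, Rpl39l, Rps27l and Rps27rt). A further 7 are annotated as pseudogenes although their symbols do not end in -ps (Rpl6l, Rpl32l, Rpl37rt, Rps3a2, Rps3a3, Rps4l and Rps12l1). The remaining 2 are not ribosomal proteins: Rps19bp1 encodes a protein that binds one, and Rpl7l1 encodes a related nucleolar protein. Fau and Rack1 also encode small subunit proteins, under symbols outside the rule, and are given separately.

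Poly(A) RNA of C57BL/6 mice was sequenced in 12 libraries, 3 to a group. Livers were either untreated or taken 2 h after LPS, a bacterial cell wall component that sets off inflammation through TLR4. Peritoneal macrophages, phagocytes of the abdominal cavity, had all carried a lentivirus for 72 h before a final 2 h of LPS. The lentivirus encoded a short hairpin RNA, either a control (shNC) or one (shGm26917) directed at Gm26917, a long non-coding RNA. Every macrophage library was therefore both transduced and LPS-treated, and no untreated macrophage group enters the comparison. The level of Gm26917 under its hairpin was not analysed here. The sources used here do not give ages, sexes or how many animals or cultures stand behind a library. The p-values measure the spread between these libraries, which may in part be technical.

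A cytosolic ribosome joins a small subunit, built around 18S ribosomal RNA with the Rps proteins, to a large subunit, built around 28S, 5.8S and 5S ribosomal RNA with the Rpl proteins. The small subunit reads the mRNA, and the large subunit joins amino acids and passes the new chain out through a tunnel. Ribosomal protein mRNAs are short, abundant and stable, and most begin with a C followed by a run of C and T (U in the RNA), the 5′ terminal oligopyrimidine or TOP motif. The RNA-binding protein LARP1 and the growth-sensing kinase complex mTORC1 control translation of TOP mRNAs through that run. In liver, ribosomal proteins serve the production of plasma proteins, including the acute phase proteins made after LPS. Some members are also known for work outside the ribosome, in p53 control and in inflammatory signalling.

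The first bases of the transcripts carry this shared control element, so windows with and without such a run are printed. They include the windows held for the 5 highest liver fold changes (Rplp2 and Rpl24) and for the 5 lowest (Rpl15, Rpl7a and Rps27rt). The others are examples from members described further on. They come from RefSeq on GRCm38.p6, 15 bases before and 15 bases from the annotated start, 5′ to 3′ on the gene's strand. Capitals mark the unbroken C/T run that covers the start base. The first 8 hold such a run and the last 3 hold none.
Rpl27a, chr7:109519180-109519209, plus strand: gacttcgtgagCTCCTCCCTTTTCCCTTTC
Rpl35, chr2:39005117-39005146, minus strand: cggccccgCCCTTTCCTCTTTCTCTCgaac
Rpl15, chr14:18270972-18271001, minus strand: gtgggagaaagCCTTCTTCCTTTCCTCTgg
Rpl7a, chr2:26910792-26910821, plus strand: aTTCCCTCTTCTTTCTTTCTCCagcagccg
Rplp2, chr7:141447636-141447665, plus strand: tgcgtcagcgTCTTCCTTTCgccgccggac
Rps27, chr3:90213634-90213663, minus strand: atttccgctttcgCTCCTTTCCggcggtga
Rps6, chr4:86857353-86857382, minus strand: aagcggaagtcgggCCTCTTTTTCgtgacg
Rps27rt, chr9:114982725-114982754, minus strand: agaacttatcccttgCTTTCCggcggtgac
Rplp0, chr5:115559452-115559481, plus strand: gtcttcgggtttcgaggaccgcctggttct
Rps3, chr7:99483695-99483724, minus strand: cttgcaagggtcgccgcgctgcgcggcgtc
Rpl24, chr16:55966260-55966289, plus strand: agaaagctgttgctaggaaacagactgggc

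The table of promoters matched 68 members, among them 57 canonical genes with 67 annotated starts. The start base lay in a C/T run of 8 or more in 25.4% of those 67 promoters, and in 3.86% of all 32851 promoters in the table. The letters CTTTCC stood within 15 bases of the start, on the sense strand, in 13.4% of canonical promoters and in 1.42% of all. On either strand of the whole 300 bases they stood in 49.3% and 26.6%. A missing run says only that these letters do not cover this annotated start. Fold changes with and without a run were close, and the difference was not tested. In liver, the 17 canonical members with a run of 8 or more had a median log2 fold change of 0.92, and 14 of them were called higher. The 40 with a window but no such run had a median of 0.88, and 35 were called higher. In macrophages the corresponding medians were -0.021 and 0.097, with no member of either set called. Called means an adjusted p under 0.05 in the edgeR test described further on. Of all tested genes, 23.3% were called higher in liver, and 12.6% higher and 11.1% lower in macrophages.

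In untreated liver the members together took 1.71% ± 0.0735 (SD, n = 3) of all counts, with 1.65%, 1.79% and 1.69% in replicates 1 to 3. In LPS liver they took 2.29% ± 0.372 (SD, n = 3), with 2.72%, 2.13% and 2.03%. Each LPS library lay above each untreated library, and LPS replicate 1 stood highest. In macrophages the shares were 1.32%, 0.992% and 1.30% with shNC, and 1.36%, 1.49% and 1.59% with shGm26917. The shGm26917 libraries lay above the shNC libraries on this scale, and shNC replicate 2 was the lowest. Such shares are relative to whatever else a library holds, and in these bulk samples fewer cells of a type and less RNA per cell cannot be told apart.

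**Figure D1:**
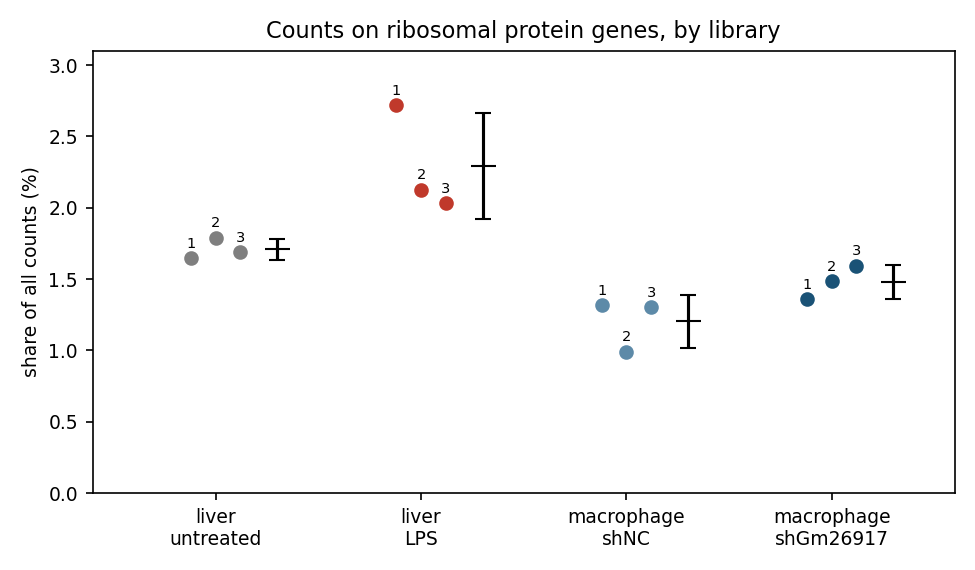
Share of all counts that fell on the 93 member genes (%, vertical axis) in each of the 12 libraries, by group; points carry replicate numbers, and the bars beside them give mean ± SD over 3 libraries. The LPS livers lie at 2.03% to 2.72%, above the untreated livers at 1.65% to 1.79%, and shNC replicate 2 is the lowest library at 0.992%.

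Library totals ran from 15605311 to 20913964 counts. The LPS livers held 9.65%, 6.24% and 6.21% of their counts on mitochondrial genes, against 5.06% to 5.45% in untreated liver, so LPS replicate 1 was also highest in that measure. Hepatocyte markers, 8 of 8 present, summed to 85580 to 127774 CPM (counts scaled to a library size of 1000000) in untreated and 71758 to 109006 in LPS liver. Neutrophil markers summed to 3.91 to 9.20 CPM and 227 to 319 CPM, with 9 of 10 tested higher. Macrophage markers went from 121 to 152 CPM up to 337 to 555 CPM (3 of 8 higher), and erythroid markers from 158 to 274 up to 564 to 1037 CPM (4 of 5 higher). Macrophage libraries held 12805 to 27265 CPM of macrophage markers, and 5 of 8 hepatocyte markers (Apob, Cps1, Fgb, Serpina1c and Ttr) were at 0 there. Neutrophil markers summed there to 783 to 1243 CPM with shNC and 626 to 753 CPM with shGm26917. Of 5 tested, 1 was called higher and 2 lower, and Ly6g, Ngp and Retnlg were at 0. B cell markers summed to 87.3 to 200 and 85.8 to 193 CPM. Stellate cell, fibroblast and mesothelium markers summed to 22.2 to 27.0 and 3.72 to 5.10 CPM, with 0 of 3 tested called. The part of other cells, or of mitochondrial share, in the liver and macrophage results was not tested.

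The liver comparison asked how these mRNAs stood 2 h after LPS. Most canonical members rose, those of the large and the small subunit alike, and none was called lower. Of 88 members tested, the edgeR quasi-likelihood test, with p adjusted by Benjamini-Hochberg over all 13869 genes, called 71 higher and 0 lower at an adjusted p under 0.05. Over all genes it called 23.3% higher and 22.1% lower. At the same threshold DESeq2 called 77 higher and 0 lower, and at an unadjusted p under 0.05 edgeR had 77 higher and 0 lower. The median log2 fold change (LPS minus untreated) was 0.90 over the members and -0.056 over all genes. Among canonical members 65 of 77 were called higher, with a median of 0.92 and quartiles of 0.74 and 1.03. The quartiles over all genes were -0.72 and 0.65. By subunit, 37 of 46 Rpl and 28 of 31 Rps genes were called, with medians of 0.88 and 0.94.

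These values rest on TMM scaling, which sets library sizes so that most genes do not change on balance. Scaled by library totals, the median of all genes was -0.49, and 14% of genes were called higher and 38.3% lower. On that scale 26 members were called higher and 0 lower, and their median was 0.48. Changing the scaling moves the values of all genes by nearly the same amount. The distance of the members from the median of all genes was therefore nearly fixed and tests nothing. Fewer members passed the test under library totals. The groups did not overlap, LPS above untreated, for 79 of 88 members under TMM, where the same held for 29.4% of all genes. No member stood lower without overlap, and 28.4% of all genes did. Under library totals 58 members stood higher without overlap and 2 lower, against 17.9% and 44.6% of all genes.

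**Figure D2:**
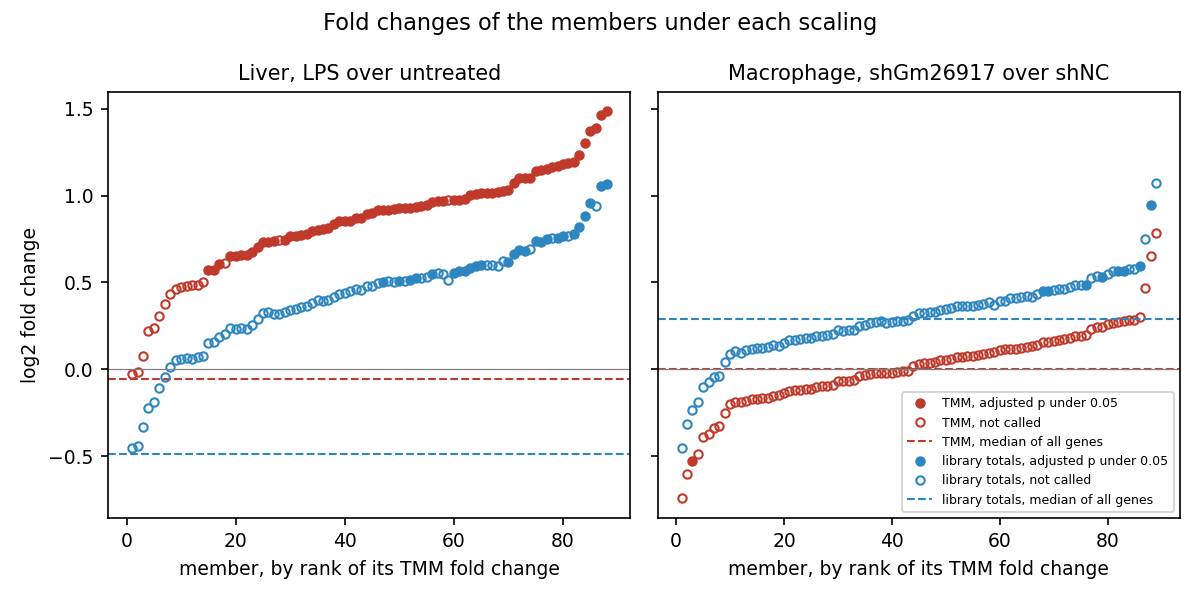
Log2 fold change (vertical axis) of each tested member in liver (left, LPS over untreated) and macrophages (right, shGm26917 over shNC), ranked by the TMM value, under TMM (red) and library totals (blue); filled points passed an adjusted p of 0.05, and dashed lines give the median of all genes. In liver the members lie above the all-gene line under both scalings, and in macrophages they scatter around it.

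The stalk of the large subunit, which recruits the translation factors, rose throughout. Rplp2, one of its acidic proteins, stood at 121, 145 and 134 CPM in the untreated livers and at 467, 288 and 282 CPM after LPS. All LPS libraries were higher, replicate 1 most, and the log2 fold change was 1.37 (SE 0.25, adjusted p = 0.00275, edgeR). Rplp1, its dimer partner, went from 274, 377 and 420 CPM to 1126, 679 and 602 CPM (log2 fold change 1.17, SE 0.30, adjusted p = 0.014). It also had the highest level per length of all members in both tissues, at 716 CPM per kilobase in untreated and 1608 in LPS liver. The groups did not overlap for either protein of the pair. Rplp0, the base of the stalk, rose less, by 0.66 (SE 0.21, adjusted p = 0.0295), from 354, 439 and 362 to 603, 622 and 597 CPM. Rpl12, which anchors the stalk base, rose by 0.68 (adjusted p = 0.0321). Under library totals only Rplp2 of the 4 passed the test (0.96, adjusted p = 0.0117).

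Rpl5 and Rpl11 carry 5S ribosomal RNA into the large subunit and, when free, bind the p53 inhibitor MDM2. Both were called higher, Rpl5 by 0.66 (SE 0.19, adjusted p = 0.0207) and Rpl11 by 0.74 (SE 0.20, adjusted p = 0.0161). Rpl11 stood at 217, 272 and 261 CPM without LPS and at 431, 413 and 405 CPM with it, with little spread among the LPS libraries. Neither passed under library totals (adjusted p = 0.298 and 0.165).

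The proteins that line the exit tunnel and its mouth differed among themselves. Of the tunnel proteins, Rpl39 was called higher (0.60, adjusted p = 0.0426), while Rpl4 (0.44, adjusted p = 0.114) and Rpl17 (0.97, SE 0.36, adjusted p = 0.0513) were not. Rpl17 varied most, from 39.2 to 76.2 CPM in untreated and from 61.0 to 137 CPM in LPS liver, and its groups overlapped. At the mouth, where the signal recognition particle docks, Rpl35 was called higher (0.75, adjusted p = 0.0161). Its neighbour Rpl23a did not move with it: 61.6, 72.9 and 70.0 CPM without LPS and 52.6, 73.5 and 76.2 CPM with it gave a log2 fold change of -0.016 (SE 0.20, adjusted p = 0.956). The difference between Rpl35 and Rpl23a was not itself tested.

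In the small subunit, the 3 proteins listed for the mRNA exit site were all called higher. The 2 listed for the entry site were not. These short lists may leave out other proteins of either site. Rpsa, also known as the laminin receptor precursor, went from 335, 399 and 422 to 933, 603 and 613 CPM (0.90, SE 0.25, adjusted p = 0.0194). Rps26 rose by 0.77 (adjusted p = 0.0115) and Rps28 by 1.18 (adjusted p = 0.00669). At the entry site Rps2 stood at 402, 595 and 680 CPM without LPS and 725, 846 and 778 CPM with it (0.49, SE 0.26, adjusted p = 0.151). Rps3, which is also described as a partner of the NF-kB subunit p65, stood at 269, 314 and 288 and at 359, 391 and 382 CPM (0.38, SE 0.19, adjusted p = 0.141). The groups of both listed entry proteins did not overlap although neither passed the test. The exit and entry proteins were not compared by a test. Under library totals only Rps28 of the exit proteins passed (0.77, adjusted p = 0.0316), with Rpsa at 0.48 and Rps26 at 0.35 (adjusted p = 0.127 and 0.128).

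The highest fold changes among the members were those of Rps20, Rpl21, Rpl24, Rplp2 and Rps27a. Rps20, a small subunit protein also described as an MDM2 binder, went from 143, 158 and 138 CPM to 534, 353 and 339 CPM, a 2.8-fold rise (log2 1.48, SE 0.24, adjusted p = 0.00148). Rps27a, made as a fusion to ubiquitin, went from 142, 159 and 142 to 480, 298 and 314 CPM (1.30, SE 0.24, adjusted p = 0.00288). Rpl21 rose by 1.46 (SE 0.38, adjusted p = 0.0136), but LPS replicate 1 stood at 189 CPM and the other two at 70.2 and 80.2 CPM. Rpl24 rested on only 7 to 25 counts per library, so its 1.39 (SE 0.43, adjusted p = 0.0291) is imprecise. The median member stood 1.09, 0.78 and 0.74 log2 units above the untreated mean in LPS replicates 1 to 3, so replicate 1 was the highest. Without it 55 members were called higher, and over all libraries left out in turn 55 to 68 were.

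Rpl3, Rpl23a, Rpl7a, Rps27rt and Rpl15 had the lowest fold changes. Rpl3, which helps form the peptidyl transferase centre, stood at 280, 272 and 295 CPM without LPS and 348, 225 and 257 CPM with it (-0.029, SE 0.22, adjusted p = 0.927). Rpl7a, at 57.0, 96.7 and 88.2 and then 74.7, 92.0 and 88.4 CPM, gave 0.077 (SE 0.23, adjusted p = 0.804). For both the LPS libraries lay on either side of untreated ones. Rpl15, with 127, 152 and 143 and then 141, 177 and 181 CPM, gave 0.24 (SE 0.19, adjusted p = 0.341). Under library totals these 5 had negative values that did not pass the test, -0.46 for Rpl3 at the lowest. The signs of Rpl3 and Rpl23a turned when counts of their -ps copies were added (0.073 and 0.14).

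**Figure D3:**
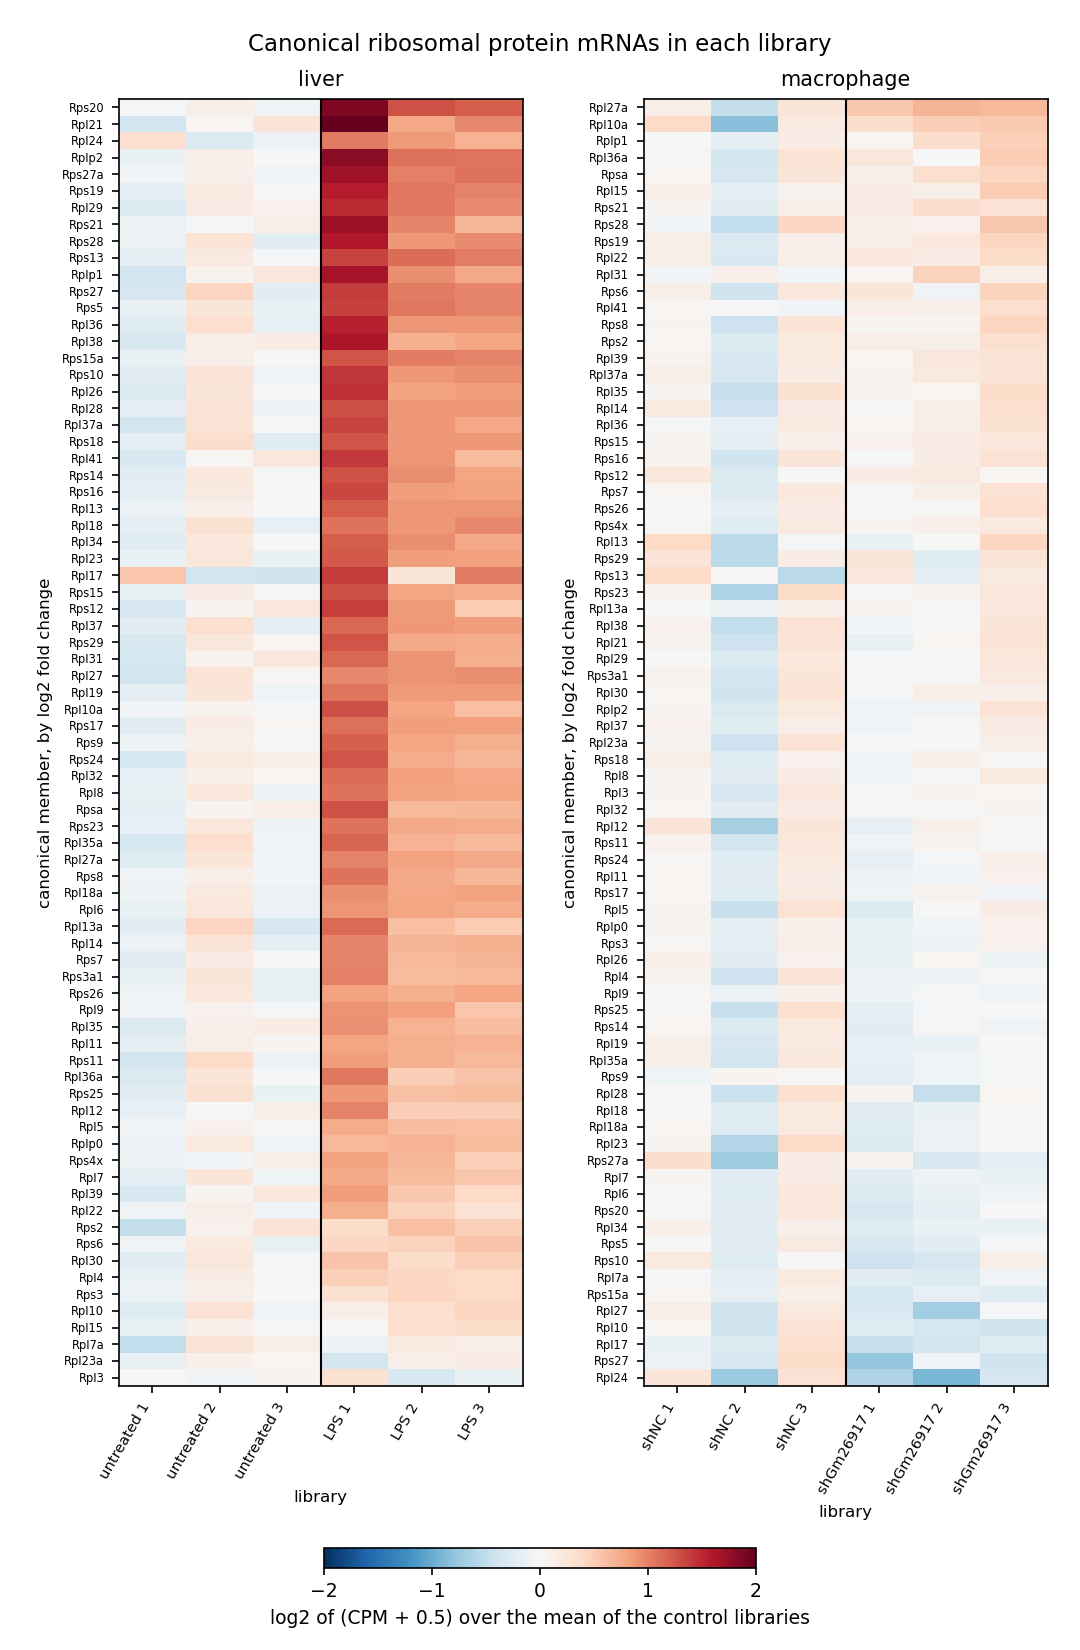
Each row is one of the 77 canonical members and each column a library; colour gives log2 of (CPM + 0.5) over the mean of the 3 control libraries of the tissue, red for higher and blue for lower, rows sorted by fold change in each tissue. In liver the 3 LPS columns are red for most rows, LPS replicate 1 most deeply, down to Rpl7a, Rpl23a and Rpl3; in macrophages the shNC replicate 2 column is blue for most rows.

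Members known from human disease, for work outside the ribosome or as a kinase target were also read singly. Rps19 and Rps14, whose reduced dosage in human underlies Diamond-Blackfan anaemia and the anaemia of the 5q- syndrome, rose by 1.23 (adjusted p = 0.00334) and 1.01 (adjusted p = 0.00767). Rpl26, which binds the p53 mRNA, rose by 1.07 (adjusted p = 0.00987). Rpl13a, which in human monocytes leaves the ribosome to silence inflammatory mRNAs, rose by 0.80 (SE 0.27, adjusted p = 0.0393) from 9.19, 14.8 and 8.60 to 24.5, 16.7 and 15.8 CPM. Rps6, the target of the S6 kinases, was at 275, 330 and 261 and then 385, 398 and 427 CPM and did not pass (0.48, SE 0.20, adjusted p = 0.0805).

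The paralogs were compared with their canonical partners per length, as the paralog's share of the pair. Rpl22l1, the paralog of the RNA-binding protein Rpl22, made up 30.5%, 35.3% and 52.3% of its pair in untreated liver and 41.4%, 37.7% and 41.9% after LPS, so the groups overlapped. Rpl36al made up 44.4% ± 1.23 and 47.2% ± 3.92 (SD, n = 3 each), and it was called higher with its partner Rpl36a (0.87 and 0.73, adjusted p = 0.010 and 0.0303). Rps27l, a p53 target, was called higher by 0.57 (adjusted p = 0.044) and Rps27 by 1.15 (adjusted p = 0.00724). The share of Rps27l in that pair was 42.3%, 38.3% and 47.1% in untreated and 29.5%, 34.1% and 35.3% in LPS liver, without overlap. The testis paralog Rpl39l held a count in 1 untreated liver library and none in the other 5. Rpl10l and Rps12l1 had no count in any of the 12 libraries. For Rpl10l this allows up to 0.192 CPM in the smallest. For Rps12l1 it sets no such limit, because 100% of its transcript sequence is also found in Rps12. Reads from Rps12l1 could therefore have been dropped or counted elsewhere. Rpl39l, Rpl10l, Rps12l1, Rpl3l and Rpl32l had too few counts to test in liver.

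Transcript length moved with the liver result. Over all other tested genes the median log2 fold change was 0.69 for those up to 500 bases and 0.47 from 500 to 700 bases. It was 0.31 up to 1000 bases, 0.074 up to 2000, -0.15 up to 4000 and -0.34 above. Canonical members, with a median length of 774 bases, had medians of 1.14, 0.94, 0.85 and 0.81 in the first 4 of these bins. Each lay above the other genes of that length. That is a description only, because the group was taken up for higher values in these same libraries. Across genes, Spearman's rho of fold change on length was -0.20 over 13848 genes and -0.34 over the 77 canonical members. When each library's trend on length was removed, 36 members were called higher and their median was 0.52. The part of length in the result, and of the RNA or library quality that can set such a trend, was not otherwise tested.

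**Figure D4:**
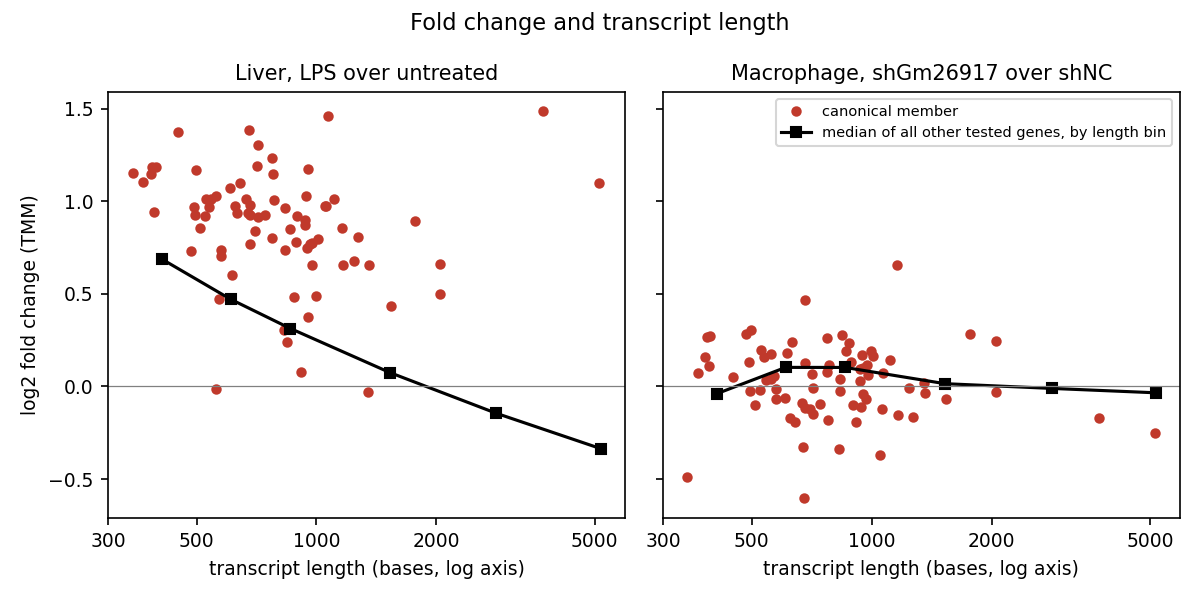
Log2 fold change (TMM, vertical axis) against transcript length (bases, log axis) in liver (left) and macrophages (right); red points are canonical members, and black squares are medians of all other tested genes in 6 length bins, drawn at the median length of the bin. In liver the medians fall from 0.69 to -0.34 with length. Most members lie above them, in a group selected on higher liver values. In macrophages the medians stay between -0.038 and 0.10.

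Genes around the ribosomal proteins were read from lists put together with earlier results of these data known. Their counts stand against the 23.3% of all genes called higher in liver and the 22.1% called lower. Fau and Rack1, which complete the small subunit, were called higher in liver (1.14 and 0.84, adjusted p = 0.00642 and 0.00943). Under library totals Fau passed the edgeR test (0.72, adjusted p = 0.0271) and Rack1 did not (0.41, adjusted p = 0.0966). Of 17 translation factors and other TOP mRNAs, 7 were called higher and 1 lower, with a median of 0.40. Tpt1, the abundant TOP mRNA of a growth-related protein, rose from 824 ± 105 to 1685 ± 250.7 CPM (SD, n = 3; log2 1.03, adjusted p = 0.00901). Eef1d and Eef1b2, of the exchange factor for eEF1A, rose by 0.97 and 0.75, and Btf3, of the complex that binds new chains at the ribosome, by 0.94 (adjusted p = 0.00639, 0.0199 and 0.00385). The elongation factors Eef1a1 (-0.23, adjusted p = 0.489) and Eef2 (0.11, adjusted p = 0.738), also TOP mRNAs, did not pass and were singled out after their values were seen. Under library totals Eef1a1 was called lower (-0.66, adjusted p = 0.0337) and Eef2 was not called (-0.32, adjusted p = 0.215).

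Of 17 genes of mTORC1 and LARP1, 3 were called higher and 4 lower in liver, with a median of -0.048. Those counts lay near the shares of all genes. Those with the largest changes were Larp1, which rose by 0.95 (adjusted p = 0.00472), and 3 that fell. The mTORC1 inhibitors Tsc1 (-1.97, adjusted p = 0.00021) and Deptor (-1.15, adjusted p = 0.003825) fell, as did Eif4ebp2 (-2.03, adjusted p = 0.00236), a repressor of cap-dependent translation. Among RNA polymerase I and assembly genes 8 of 17 were called higher and 0 lower. They included Nop58, of the particles that methylate ribosomal RNA (18.5 ± 4.46 to 132 ± 4.01 CPM), and Rrs1, an assembly factor of the 5S particle (21.1 ± 5.02 to 65.4 ± 3.03 CPM). Myc, a driver of ribosome synthesis, rose by 1.49 and Bysl, of small-subunit assembly, by 1.06 (adjusted p = 0.00347 and 0.00155). Host genes of small nucleolar RNAs, many of them TOP transcripts, were called higher in 7 of 11 tested and lower in 0. Snhg15, Zfas1, Nop56 and Snhg8 rose by 2.24, 1.97, 1.14 and 0.91 (adjusted p = 0.00174, 0.000823, 0.0041 and 0.0199).

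Of 11 tested genes of ribosome quality control and of signalling by free ribosomal proteins, 6 were called higher and 1 lower. Pelo, a ribosome rescue factor, rose by 2.68 (adjusted p = 1.9e-05), and Zfp598, a sensor of collided ribosomes, by 2.46 (adjusted p = 0.000261). Mdm2 rose by 1.52 (adjusted p = 0.000651) and the p53 target Cdkn1a by 2.33 (SE 0.80, adjusted p = 0.0412). Under library totals, with 14% of all genes called higher and 38.3% lower, the counts higher and lower were 3 and 3 of 17 for TOP mRNAs, 0 and 7 of 17 for mTORC1 and LARP1, and 4 and 1 of 17 for assembly. They were 3 and 1 of 11 for host genes and 3 and 1 of 11 for quality control.

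The macrophage comparison asked how the same mRNAs stood with the hairpin against Gm26917, all cells having had LPS. The median member stayed at the median of all genes. Of 89 tested, 0 were called higher and 1 lower by edgeR with Benjamini-Hochberg adjustment over 12876 genes, where 12.6% of all genes were called higher and 11.1% lower. The median log2 fold change (shGm26917 minus shNC) was 0.031 over the members and -0.00073 over all genes. No canonical member passed the test. At an unadjusted p under 0.05, edgeR had 1 member higher and 2 lower. With its own adjustment, DESeq2 called 1 higher (Rpl27a) and 2 lower (Rpl7l1 and Rpl22l1). Groups stood apart for 5 members higher and 2 lower, against 24.2% and 21.7% of all genes.

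The member called lower was Rpl7l1, the nucleolar relative of Rpl7. It stood at 130, 120 and 142 CPM with shNC and 91.5, 86.6 and 93.5 CPM with shGm26917, without overlap, a 1.44-fold lower level (log2 -0.53, SE 0.11, adjusted p = 0.0196). Under library totals it did not pass (-0.24, adjusted p = 0.155), and leaving out any library but shNC replicate 2 also ended the call. In liver the same gene had been called higher by LPS (0.57, adjusted p = 0.0229). Its canonical relative Rpl7 did not pass in macrophages (-0.15, adjusted p = 0.470).

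Library totals raised all genes together, to a median of 0.29, and 24.3% of genes were called higher and 6.17% lower. On that scale 8 members were called higher and 0 lower, with a median of 0.32. Groups stood apart for 45 members higher and 1 lower on that scale, against 41.7% and 10.2% of all genes. The 8 called were Rpl15, Rpl22, Rpl27a, Rpl36, Rpl41, Rplp1, Rps15 and Rps21. Rpl27a had the highest canonical fold change under both scalings: 10.1, 6.42 and 10.9 CPM with shNC and 13.5, 14.9 and 14.7 CPM with shGm26917 (log2 0.65, SE 0.22, adjusted p = 0.073 by TMM, and 0.94, adjusted p = 0.023 by library totals). Its groups did not overlap. Rpl10a (0.47, SE 0.30, adjusted p = 0.296) and Rpl39l (0.79, SE 0.39, adjusted p = 0.181) stood next to it. Rpl39l was at 0.804, 0.541 and 1.01 CPM with shNC and at 1.73, 0.986 and 1.36 CPM with shGm26917, and its groups overlapped.

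At the lower end stood Rpl22l1, Rpl24, Rpl7l1, Rps27 and Rpl36al. Rpl22l1 was at 33.1, 20.3 and 38.9 CPM with shNC and 14.6, 18.2 and 22.3 CPM with shGm26917 (-0.74, SE 0.27, adjusted p = 0.0908), overlapping in shNC replicate 2. Its partner Rpl22 went the other way, from 93.4, 69.3 and 93.0 to 98.7, 94.6 and 110 CPM (0.24, SE 0.15, adjusted p = 0.274). The share of Rpl22l1 in the pair, per length, was 57.4%, 52.8% and 61.4% with shNC and 36.0%, 42.2% and 43.7% with shGm26917. Those shares did not overlap, and an exact permutation of 3 against 3 libraries cannot reach a 2-sided p below 0.1. Rpl24 was at 62.0, 31.2 and 64.1 CPM and then 34.4, 27.5 and 41.6 CPM (-0.60, SE 0.30, adjusted p = 0.179), again with shNC replicate 2 apart from its group.

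shNC replicate 2 was the lowest macrophage library for most members. Relative to the shNC mean, the median member stood at 0.067, -0.27 and 0.21 log2 units in shNC replicates 1 to 3, and at -0.061, 0.0089 and 0.13 in the shGm26917 replicates. Its mitochondrial share was also the lowest, at 0.523% against 0.740% to 0.976% in the other macrophage libraries. Without that library 1 member was called higher (Rpl27a) and 7 lower, and the median was -0.14. The 7 were Rpl7l1, Rpl10, Rpl22l1, Rpl24, Rpl36al, Rps15a and Rps27l.

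By role, the stalk proteins stood at -0.035 for Rplp0, 0.30 for Rplp1, 0.051 for Rplp2 and -0.0094 for Rpl12, and none passed. Rpl5 and Rpl11 were at -0.029 and -0.022, with adjusted p of 0.943 and 0.918. Rpl4, Rpl17 and Rpl39 in the tunnel were at -0.066, -0.37 and 0.18, and Rpl23a and Rpl35 at its mouth at 0.038 and 0.17. The entry proteins Rps2 and Rps3 were at 0.19 and -0.041, and the exit proteins Rpsa, Rps26 and Rps28 at 0.29, 0.12 and 0.27. None of these passed the test. Their standard errors were 0.13 to 0.27 log2 units, and values as far from 0 as -0.37 for Rpl17 did not pass. Rpl13a (0.079), Rps6 (0.23), Rpl26 (-0.064), Rps14 (-0.089) and Rps19 (0.26) also did not pass. Under library totals the negative values of Rplp0, Rpl12, Rpl5, Rpl11, Rpl4, Rps3, Rpl26 and Rps14 turned positive.

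The surrounding lists differed among themselves in macrophages, where 12.6% of all genes were called higher and 11.1% lower. Under TMM scaling neither Fau nor Rack1, none of 17 TOP mRNAs and none of 12 small nucleolar RNA host genes passed the edgeR test. None of them passed the DESeq2 test either. At an unadjusted p under 0.05 edgeR had 1 of these genes, Fau, lower and 0 higher. Of 17 mTORC1 and LARP1 genes 4 were called higher: Deptor (3.13, adjusted p = 0.00468), Eif4ebp2 (0.69, adjusted p = 0.0116), Tsc1 (0.57, adjusted p = 0.018) and Rps6kb1 (0.55, adjusted p = 0.0143). Deptor was at 3.23 ± 1.76 CPM with shNC and 28.4 ± 4.62 CPM with shGm26917 (SD, n = 3). The first 3 of these had been called lower in LPS liver. Polr1a (0.45, adjusted p = 0.0279) and Wdr12 (0.98, adjusted p = 0.0373), of ribosomal RNA synthesis and large-subunit assembly, were the 2 of 17 assembly genes called higher. Mdm2 (-0.82, adjusted p = 0.0177), Cdkn1a (-1.20, adjusted p = 0.0278) and Ascc3 (-1.07, adjusted p = 0.0213) were the 3 of 11 quality control and p53 genes called lower. Library totals gave other counts, with 24.3% of all genes called higher and 6.17% lower. On that scale 4 of 17 TOP mRNAs, 1 of 12 host genes, 7 of 17 mTORC1 and LARP1 genes and 5 of 17 assembly genes were called higher. None of these lists had a gene called lower. Of the 11 quality control genes 1 was called higher and 3 lower, and neither Fau nor Rack1 passed.

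The same gene could hold very different levels in the tables of the 2 tissues. These levels are CPM on the library total, and the tables came from different annotations, so they are set side by side with no test. Of the 77 canonical members, 42 had a macrophage mean from 0.5 to 2 times the liver mean, and 22 were under 0.2 of it, 13 of them under 0.05. Rps27 averaged 169 in liver (108 to 256 over 6 libraries) and 1.76 in macrophages (1.11 to 2.45). Rps13 averaged 159 and 2.30, Rps6 340 and 7.24, and Rps29 212 and 4.59. Rpl5, Rps27a, Rpl28, Rps23, Rpl31 and Rpl13 also lay under 0.05. The ranges of the tissues did not overlap for any of these.

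In the other direction stood 3 members. Rpl24 averaged 0.886 in liver (0.346 to 1.38) and 42.8 in macrophages (27.9 to 59.3), and Rpl13a averaged 14.4 and 170. Rpl7a averaged 82.7 and 172. Nearly all ribosomal proteins are present in a single copy per ribosome, but the counts per length were not equal. In liver the quartiles over the canonical members were 210 and 428 per kilobase, and in macrophages they were 40.5 and 335. Near-identical copies make such counts uncertain, because a read that fits several places can be dropped or split. Of the 50-base words in a member's transcripts, the median share found in a transcript of another gene was 44.4% for the 22 low members and 30.3% for the 45 at 0.5 or more. Across the 77 genes the rank correlation of that share with the ratio of levels was -0.21, a description over genes that share libraries. Whether copies, annotation or mRNA level set these differences was not tested.

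**Figure D5:**
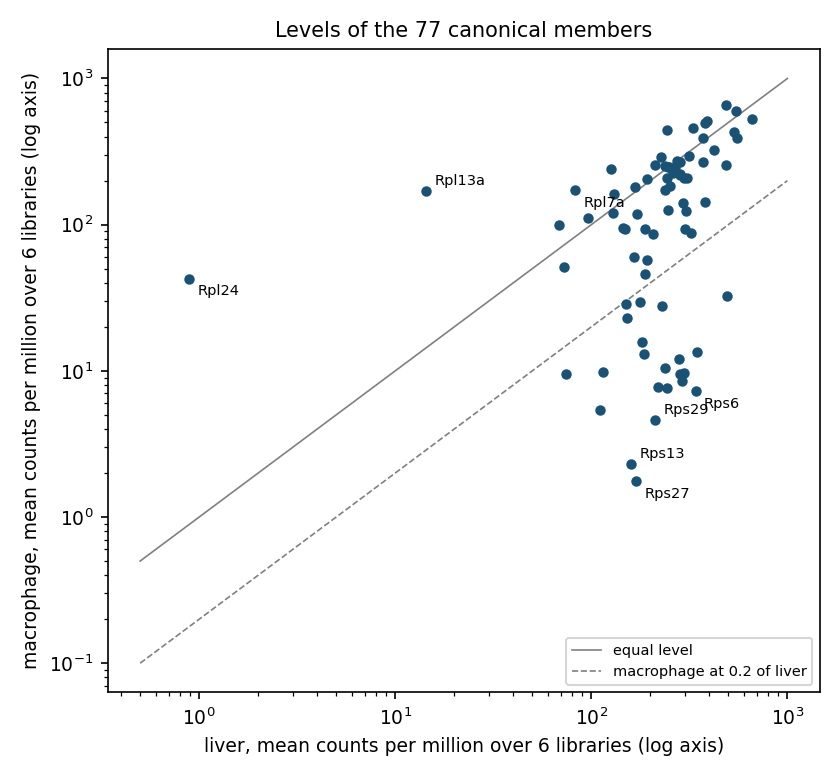
Mean CPM on the library total over 6 liver libraries (horizontal, log axis) and 6 macrophage libraries (vertical, log axis) for each of the 77 canonical members; the solid line marks equal levels and the dashed line a macrophage level of 0.2 of liver. Most points lie near the solid line, 22 lie under the dashed line down to Rps27 at 169 and 1.76, and Rpl24 and Rpl13a lie far above.

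Members with a low macrophage level had fold changes close to those of the others within each tissue, a difference that was not tested. The 22 had median log2 fold changes of 0.94 in liver, with 18 called higher, and 0.097 in macrophages, with 0 called. The 45 at 0.5 or more had 0.92, with 37 called higher, and 0.017, with 0 called. In liver, 27 members shared under 25% of their words with other genes, and 20 of them were called higher with a median of 0.90. Beside these counts, 23.3% of all genes were called higher in liver. In macrophages 12.6% were called higher and 11.1% lower.

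The small subunit took a slightly larger part of the canonical counts after LPS. It was 43.9%, 44.0% and 43.9% in untreated liver and 45.9%, 45.3% and 45.2% in LPS liver, without overlap. In macrophages it was 45.1%, 46.3% and 45.4% with shNC and 46.0%, 46.4% and 46.0% with shGm26917, and shNC replicate 2 lay within the shGm26917 range.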

How the data were processed

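Each deposited table holds raw counts of reads for the Ensembl gene IDs of 1 library, per the file headers. STAR, featureCounts 1.6.3 and mm10 are named in the submitters' processing notes. Their settings, annotation release, strand and the handling of multi-mapping reads: not given in the sources used here. The macrophage headers carry the word combined without saying what was combined. Symbols matched 49326 liver and 55141 macrophage IDs. Each tissue was fitted alone in edgeR 4.0.16 (R 4.3.3): filterByExpr, TMM, glmQLFit and glmQLFTest with group alone, 2-sided, Benjamini-Hochberg over all genes tested, called under 0.05. DESeq2 1.42.0 was an alternative. The steps were tested on simulated data. Levels are CPM on TMM-scaled library sizes unless totals are named. Lengths and copies (50-base words) used GENCODE M21 on GRCm38, with the median length of a gene's basic coding transcripts.

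Members and lists were chosen with earlier results of these data known. Genes named were the 5 highest and 5 lowest fold changes per comparison, the 3 highest and 3 lowest levels per length, and every gene of the role groups. At most 4 genes of a pathway list were to be named. Members singled out by the ratio between tissues, or by a call under another setting, were chosen after their values were seen. A gene of the lists is not reported here.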

Additional observations from a re-analysis of the deposited data

How the results depend on the processing

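The liver count of 71 members called higher and their median of 0.90 (log2) moved under 2 planned settings: 26 and 0.48 by library totals, and 36 and 0.52 with a length offset. Among members with few shared words, a choice made after seeing the data, fewer were tested and 20 were called. Without one library at a time the count was 55 to 68 and the median 0.77 to 0.96. The count lower stayed 0 in these runs. Other settings gave 64 to 77.

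The macrophage counts of 0 higher and 1 lower became 8 and 0 by library totals, 1 and 2 by DESeq2, and 0 and 2 with a length offset. Over canonical members alone, also chosen afterwards, 0 were lower. Without one library at a time, 0 to 1 were higher and 0 to 7 lower, and the median of 0.031 ran from -0.14 to 0.12. The median was 0.32 by library totals, -0.071 with a length offset and -0.054 among members with few shared words. The cause was not tested.

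For each gene, the deviation of a library's log CPM from its group mean was taken. These deviations, not the levels, were correlated across genes between control and treated libraries. For same-numbered libraries the correlations were 0.118, 0.050 and -0.077 in liver and -0.041, 0.240 and 0.178 in macrophages. For differently numbered ones they ran from -0.186 to 0.123 in liver and from -0.236 to 0.157 in macrophages. So few values cannot show whether same-numbered libraries shared an animal, culture or batch. With the number as a replicate block, 64 liver members were higher, and macrophages again had 0 higher and 1 lower.

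Library totals moved the median of all genes from -0.056 to -0.49 in liver and from -0.00073 to 0.29 in macrophages. Signs of some named members turned with the setting. By library totals these were, in liver, Rpl10 (-0.11), Rpl15 (-0.19), Rpl7a (-0.33), Rps27rt (-0.22) and Rps3 (-0.047). In macrophages they were Rpl11 (0.27), Rpl12 (0.28), Rpl26 (0.23), Rpl4 (0.23), Rpl5 (0.26), Rpl7 (0.14), Rplp0 (0.26), Rps14 (0.20), Rps27l (0.17), Rps27rt (0.087), Rps3 (0.25), Rps3a2 (0.28) and Rps9 (0.19). With a length offset they were, in liver, Rpl10 (-0.00097), Rpl15 (-0.072), Rpl22l1 (-0.018), Rpl7a (-0.19) and Rps27rt (-0.43), and in macrophages Rpl13a (-0.017), Rpl23a (-0.040), Rpl3 (-0.073), Rplp2 (-0.026) and Rps13 (-0.0026). Adding -ps rows turned liver Rpl23a (0.14) and Rpl3 (0.073) and macrophage Rps13 (-0.072). Fitting 12 libraries together turned liver Rpl7a (-0.0038), DESeq2 macrophage Rpl3 (-0.0037), and the block macrophage Rpl12 (0.040).

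Without one library at a time, liver Rpl23a ran from -0.10 to 0.15, Rpl3 from -0.21 to 0.11 and Rpl7a from -0.13 to 0.20. In macrophages Rpl11 ran from -0.14 to 0.052, Rpl12 from -0.28 to 0.12, Rpl23a from -0.15 to 0.19, Rpl3 from -0.14 to 0.13, Rpl35 from -0.031 to 0.34, Rpl4 from -0.25 to 0.074 and Rpl5 from -0.23 to 0.14. Rplp0 ran from -0.13 to 0.018, Rplp2 from -0.089 to 0.15, Rps13 from -0.17 to 0.38, Rps14 from -0.22 to 0.0066, Rps27l from -0.41 to 0.070, Rps3 from -0.14 to 0.019, Rps3a2 from -0.15 to 0.20, Rps4l from -0.025 to 0.29 and Rps4x from -0.0044 to 0.21.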
